A study of Drosophila melanogaster with 2 samples.

Results

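Binding of the zinc-finger and BTB protein CG12236 at the starts of non-coding RNA genes was described from 673 regions, out of 30000 in the list called on both replicates together. A region was counted when its summit, the position of highest signal, lay within 500 bp of an annotated start of a gene with the biotype ncRNA and more than 500 bp from every protein-coding transcript start. The regions were chosen by position and not by signal, although the choice was made with earlier results of these data known. Of the rest, 354 regions lay within 500 bp of both kinds of start, 8165 near protein-coding starts only and 20808 near neither. The material was whole Drosophila melanogaster embryos aged 0 to 24 h, of mixed sex, from 1 transgenic line that stably expressed CG12236 with GFP fused to its C-terminus. Chromatin was sonicated to 200 to 800 bp, precipitated with an antibody to GFP and sequenced. Replicates 3 and 1, both biological, formed 1 group and share the line, the tag, the age range and the control alignment, so no comparison between conditions was possible. The labels do not name the promoter of the fusion, and the tagged protein stands for the native one only as far as the tag allows.

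Long non-coding RNAs are transcripts without a conserved reading frame, and in the fly they range from scaffolds of dosage compensation to hosts of small RNAs. Many are transcribed from within or beside protein-coding genes, so a region at such a start can also lie in a neighbour's intron or regulatory DNA. The label "long non-coding RNA" covered most of the regions but not all of them. The nearest ncRNA gene had an lncRNA symbol in 507 of the 673 regions and an antisense (asRNA) symbol in 97. In 57 it was a miRNA gene or mature miRNA record, whose annotated start is the end of the processed RNA and not that of its primary transcript. The last 12 lay at other ncRNAs, such as the Uhg genes, which host small nucleolar RNAs in their introns. The name "ncRNA start" is therefore used for the whole set.

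The DNA under the strongest summits, and under the strongest region within 500 bp of a start of each of 3 well-studied ncRNAs, is shown so that the sites can be read beside their values. Each line gives the summit base with 100 bases on either side, 5′ to 3′ on the strand of the ncRNA gene, from the RefSeq copy of the Release 6 (dm6) genome. Capitals mark a match, on either strand, to any of 8 short words. These were GAGAG, read by the Trithorax-like protein, the DRE word TATCGATA, the promoter word TATAAA, the E-box word CAGCTG, the word CACTGTGC, the initiator word TCAGT, the Zelda word CAGGTA and the repeat CACACACA. No word lies within another, although matches can overlap one another.
CR31840, chr2L:14023963-14024163 (-): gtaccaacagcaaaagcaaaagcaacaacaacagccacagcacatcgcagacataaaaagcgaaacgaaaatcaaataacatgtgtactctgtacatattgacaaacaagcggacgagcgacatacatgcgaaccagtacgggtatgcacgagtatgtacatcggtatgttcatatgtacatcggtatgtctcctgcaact
CR44619, chrX:12751301-12751501 (+): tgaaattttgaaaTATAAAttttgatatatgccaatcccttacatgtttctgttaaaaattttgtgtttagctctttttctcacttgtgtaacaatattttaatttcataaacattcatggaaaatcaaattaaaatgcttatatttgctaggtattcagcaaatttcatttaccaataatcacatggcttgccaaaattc
CR31044, chr3R:29214340-29214540 (+): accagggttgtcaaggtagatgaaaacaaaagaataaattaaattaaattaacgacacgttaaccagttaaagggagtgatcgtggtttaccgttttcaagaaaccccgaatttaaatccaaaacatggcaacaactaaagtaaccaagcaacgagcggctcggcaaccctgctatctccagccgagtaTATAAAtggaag
CR44619, chrX:12752258-12752458 (+): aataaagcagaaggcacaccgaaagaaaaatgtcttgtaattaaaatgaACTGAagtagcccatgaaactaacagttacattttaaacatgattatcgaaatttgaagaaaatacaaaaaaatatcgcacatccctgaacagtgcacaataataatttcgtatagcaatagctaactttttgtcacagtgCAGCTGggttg
mir-9378, chr2L:10751988-10752188 (-): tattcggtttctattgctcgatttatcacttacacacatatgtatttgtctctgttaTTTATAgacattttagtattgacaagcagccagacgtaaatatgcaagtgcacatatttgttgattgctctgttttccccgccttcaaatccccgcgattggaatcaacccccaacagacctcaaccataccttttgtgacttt
CR43626, chr3L:3250072-3250272 (+): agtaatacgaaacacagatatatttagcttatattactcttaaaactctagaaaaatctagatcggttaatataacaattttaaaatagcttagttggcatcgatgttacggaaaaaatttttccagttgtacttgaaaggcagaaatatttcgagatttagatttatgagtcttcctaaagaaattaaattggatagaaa
Hsromega, chr3R:21296227-21296427 (+): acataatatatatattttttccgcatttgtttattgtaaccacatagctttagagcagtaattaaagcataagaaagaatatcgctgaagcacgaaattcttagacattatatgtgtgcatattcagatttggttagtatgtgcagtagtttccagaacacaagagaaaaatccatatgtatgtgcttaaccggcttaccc
iab8, chr3R:16899729-16899929 (-): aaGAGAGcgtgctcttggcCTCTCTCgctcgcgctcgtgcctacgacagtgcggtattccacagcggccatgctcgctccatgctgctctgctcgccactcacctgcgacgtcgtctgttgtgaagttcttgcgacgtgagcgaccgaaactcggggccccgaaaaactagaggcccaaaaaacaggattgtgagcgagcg
roX1, chrX:3862501-3862701 (-): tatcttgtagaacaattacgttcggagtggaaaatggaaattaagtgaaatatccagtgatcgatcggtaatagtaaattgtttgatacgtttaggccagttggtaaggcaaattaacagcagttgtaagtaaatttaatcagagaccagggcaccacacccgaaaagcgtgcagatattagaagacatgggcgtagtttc
A TATAAA word lay in 3 of these windows, at CR44619 upstream of its start, at CR31044 and at mir-9378, where it reads TTTATA because the match is on the other strand. The second CR44619 window held 1 CAGCTG and 1 initiator word, read as ACTGA. The iab8 window held 3 GAGAG matches, of which a pair overlap one another. The windows at CR31840, CR43626, Hsromega and roX1 held none of the 8 words.

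The regions at ncRNA starts covered nearly the whole range of binding strength. By the authors' signal, which has no stated scale, they ran from rank 8 to rank 29987 of 30000, with a median rank of 13734 and quartiles of 6615 and 22138. Their median signal was 26.63, against 25.41 for all regions, 30.72 at protein-coding starts and 24.04 near neither kind of start. The median ranks of those last 2 sets were 10538 and 16626. Regions at ncRNA starts thus lay between them in the middle of the distribution. In whole embryos, binding in fewer cells and weaker binding per cell cannot be told apart.

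The authors' list of reproducible peaks, made by irreproducible discovery rate (IDR) analysis, holds the 2426 strongest pooled regions, so presence on it is a statement about rank. It took in 67 of the 673 regions at ncRNA starts, or 9.96% (95% Wilson interval 7.92 to 12.4), against a background of 8.09% of all pooled regions. The share was 13.0% (12.2 to 13.7) at protein-coding starts, 11.9% (8.90 to 15.6) near both kinds of start and 6.05% (5.73 to 6.38) near neither. The members' interval includes the background share, so as a whole set they are not set apart from the pooled list. With lncRNA and antisense starts alone, a set added after seeing the data, it was 65 of 605 (10.7%, 8.52 to 13.5), whose interval lies above the background, and this difference was not tested. The last member on the IDR list, at CR44274, had rank 2424 and a signal of 70.50, and the next, at CR44284, had rank 2445 and a signal of 70.16.

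The members' share of the list was highest at its top. Members made up 4 of the 100 strongest regions (interval 1.57 to 9.84%) and 15 of the next 400, down to rank 500 (3.75%, 2.29 to 6.09). They made up 33 of those between ranks 1000 and 2426 (2.31%) and 214 of the last 10000 (2.14%, 1.87 to 2.44). The counts at the top are small, and the interval for the first 100 contains the share at the bottom of the list. Within the first 100, the members at ranks 18 and 31 both lie at CR44619. Over the whole list, members were 673 of 30000 regions.

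The strongest member lay at CR31840 on arm 2L, a short lncRNA gene on the minus strand whose nearest coding start, that of hll, was 2938 bp away. Its summit lay 36 bp downstream of the start, with a pooled signal of 757.0 (rank 8), 320.5 in replicate 1 (rank 3) and 442.8 in replicate 3 (rank 16). Both replicates placed it among their strongest regions.

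CR44619, an lncRNA gene on X far from coding starts, had a strong region on either side of its start. The upstream summit, 466 bp before the start, had signals of 171.5 in replicate 1 (rank 29), 467.1 in replicate 3 (rank 13) and 636.8 pooled (rank 18). The downstream summit, 491 bp after it, had 149.9 (rank 44), 338.5 (rank 29) and 493.6 (rank 31) in the same order. Replicate 3 gave the higher signal at each, and the pair form 2 of the 3 strongest members after CR31840. Both lie near the limit of 500 bp, so they flank the start and do not sit on it, and the nearest coding gene, CG4004, was 5084 and 6041 bp away.

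At CR31044 on 3R, the summit lay 122 bp upstream of the start and 5732 bp from that of eEF1gamma, a subunit of a translation elongation factor. Its signals were 210.2 in replicate 1 (rank 17), 333.6 in replicate 3 (rank 31) and 546.0 pooled (rank 26). It stood among the strongest regions of each replicate. The only member on the IDR list whose nearest ncRNA gene was a miRNA was at mir-9378, inside an intron of CG17124 on the same strand, with 127.2 in replicate 1 (rank 72), 184.7 in replicate 3 (rank 129) and 310.5 pooled (rank 101). Because that start is the end of a hairpin within a coding gene's intron, the region could be assigned to either gene.

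**Figure D1:**
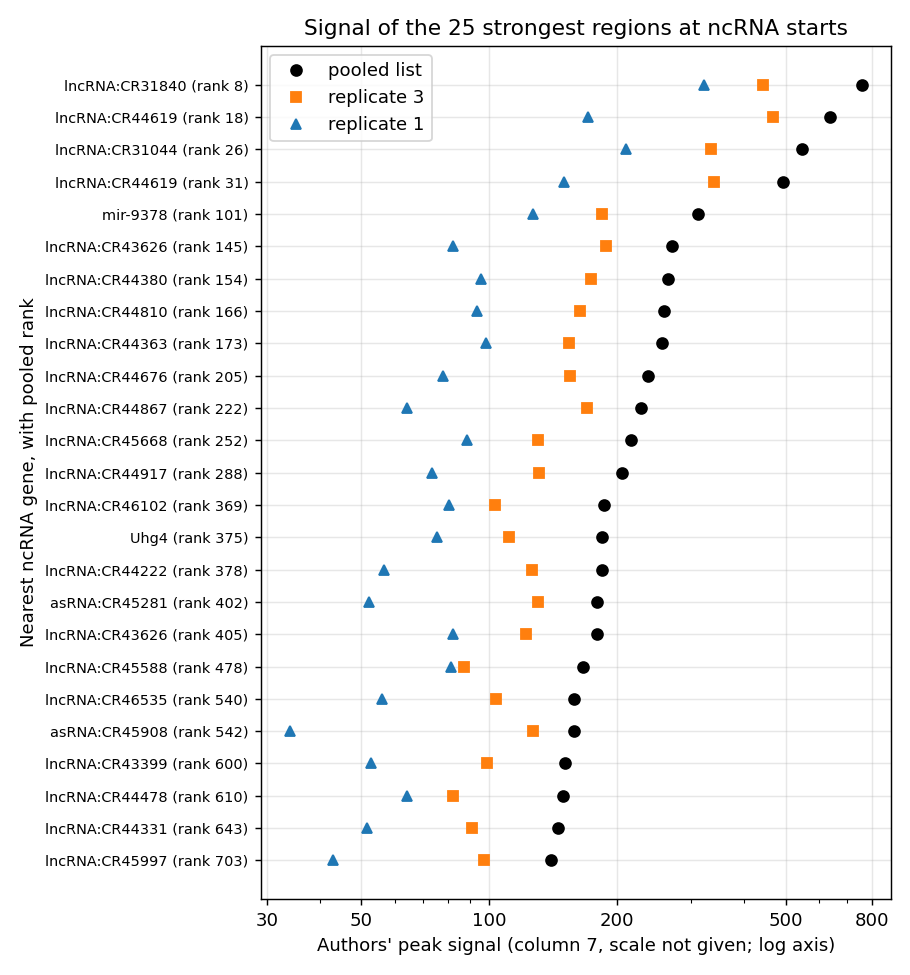
Signal of the 25 strongest regions at ncRNA starts, on a logarithmic axis, in the pooled list (circles), replicate 3 (squares) and replicate 1 (triangles); each row is 1 region, named by its nearest ncRNA gene. Replicate 3 lies to the right of replicate 1 in all 25 rows, and the pooled signal falls from 757.0 at CR31840 to 139.7 at CR45997.

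The next members, down to the 25th, had pooled signals between 270.4 and 139.7. CR43626 and CR44380 each had a pair of regions on the IDR list, at ranks 145 and 405 and at ranks 154 and 797. The CR43626 pair matched the same summit in replicate 1, with a signal of 82.04, so replicate 1 does not separate them, while replicate 3 gave 189.0 and 122.5. Together with CR44619 these were the 3 genes with more than 1 region on the IDR list.

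Several of the other members in this range lay outside coding genes. CR44810 (rank 166) had its nearest coding start 4529 bp away at slbo, the C/EBP factor of border cell migration. CR45668 (rank 252) lay 674 bp from a start of Act5C, a cytoplasmic actin, with 88.74 in replicate 1 and 130.7 in replicate 3. CR45588 (rank 478) lay farthest, 32899 bp from corto, which encodes a chromatin protein, with 81.43 and 87.13 in the same order. The replicates were nearly equal there, while at most of these regions replicate 3 was clearly higher. The rest of this kind were at CR44363 (rank 173), CR44676 (205), CR44917 (288), Uhg4 (375), asRNA:CR45281 (402) and CR46535 (540), with nearest coding genes CG44362, CG9300, CG11629, Boot, Alp6 and Cyp4d21.

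The others lay in introns of coding genes. CR44222 (rank 378) lay in an intron of kis, a chromatin remodeller of the trithorax group, on the opposite strand, with 56.49 in replicate 1 and 126.0 in replicate 3. CR44331 (rank 643) lay in puc, the phosphatase that restrains JNK signalling, with 51.49 and 91.20. CR44478 (rank 610) lay in Socs36E, an inhibitor of JAK/STAT signalling, with 64.22 and 82.39. In each of these genes the ncRNA was antisense to the host, and replicate 3 was the higher. CR43399 (rank 600) lay in ena, a regulator of actin filaments, and CR45997 (rank 703) in mbl, the muscleblind splicing regulator, both on the host's strand. The remaining introns were those of beat-Ib (CR44867, rank 222), LpR2, a lipophorin receptor (CR46102, rank 369) and CG1943 (asRNA:CR45908, rank 542).

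The strong members had like median ranks in both replicates, and single members could differ widely. All 67 members on the IDR list had a summit within 200 bp in both replicate lists, as had 2419 of the 2426 peaks of that list. Their median signal was 44.20 in replicate 1 (range 13.93 to 320.5) and 71.40 in replicate 3 (32.65 to 467.1), and 64 of the 67 were higher in replicate 3. Their median ranks were 1048 and 1051, and 26 of the 67 had the better rank in replicate 1. Of the 67, 51 were among the 2426 strongest of replicate 1 and 63 among those of replicate 3, and the worst ranks were 12140 and 4120. The other IDR peaks showed the same offset, with medians of 40.59 and 66.57. Signals of the replicates are therefore best read within a list, by rank.

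Over all members, 321 of 673 (47.7%, 43.9 to 51.5) had a summit within 200 bp in both replicate lists, against 43.6% of all regions, 55.6% at protein-coding starts and 38.6% near neither. Replicate signals had a Spearman rho of 0.547 over those 321 regions and of 0.563 over 13078 pooled regions. Over the 67 members on the IDR list it was 0.681, against 0.549 over 2419 peaks of that list. These are descriptions, since the replicates share a control and the regions were called on their sum. Some members share a replicate summit with another member, 24 of them in replicate 1 and 34 in replicate 3, and 181 (26.9%) overlap another pooled region, as 27.0% of all regions do.

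The share of regions on the IDR list is given by kind of ncRNA. At lncRNA symbols it was 61 of 507 (12%, 9.48 to 15.2), at antisense symbols 4 of 97 (4.12%, 1.62 to 10.1) and at miRNAs 1 of 57 (1.75%, 0.310 to 9.29). Median ranks were 12591, 16940 and 15252 in that order. Only the lncRNA interval lies wholly above the background of 8.09%, and the intervals of the other kinds include it. The lncRNA and antisense intervals overlap, the difference between the kinds was not tested, and the kinds also differ in place: 36 of the 97 antisense members lay in coding exons, against 4 of the 507 lncRNA members. Within introns, 16 of 123 lncRNA members (13.0%) and 2 of 38 antisense members (5.26%) were on the IDR list, and outside coding genes 45 of 370 (12.2%) and 2 of 16 (12.5%).

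**Figure D2:**
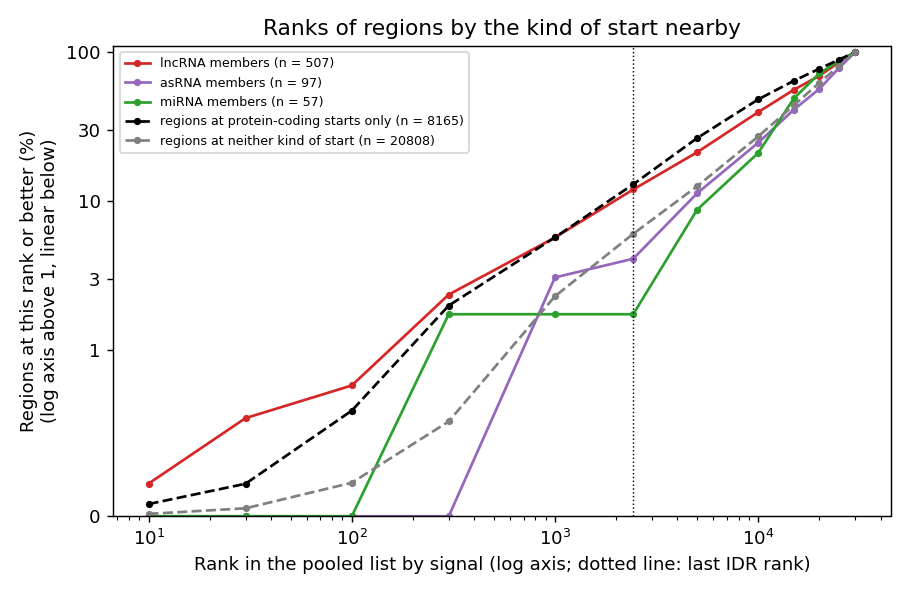
Cumulative share of regions (vertical axis, in percent, logarithmic above 1 and linear below) at or above each rank of the pooled list (logarithmic axis), by kind of nearest ncRNA gene and for the sets near protein-coding starts and near neither; the dotted line is rank 2426. At that line the lncRNA curve stands at 12%, close to the 13.0% at protein-coding starts, and the antisense and miRNA curves stand at 4.12% and 1.75%, below the 6.05% near neither.

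Most members lay outside coding genes. Of the 673, 408 (60.6%) lay outside, 192 (28.5%) in introns, 54 (8.02%) in coding exons and 19 in untranslated exons, while the regions near neither kind of start were 25.2% outside and 51.8% in introns. Outside coding genes, 48 of 408 members (11.8%, 8.99 to 15.3) were on the IDR list, against 349 of 5243 regions near neither start (6.66%, 6.01 to 7.36). In introns it was 19 of 192 (9.90%, 6.43 to 14.9) against 872 of 10785 (8.09%, 7.59 to 8.61). The intervals are apart outside coding genes and overlap in introns. They count nearby regions apart, such as the pairs at CR44619, CR43626 and CR44380 outside coding genes, and so are too narrow. The difference was not tested. In coding exons the share on the IDR list was 0 of 54, with a Wilson upper bound of 6.64%, against 7 of 3741 (0.187%). Of the members inside coding genes, the ncRNA was antisense to the host in 178, with 12 on the IDR list (6.74%, 3.90 to 11.4). It was on the host's strand in 81, with 7 on the list (8.64%, 4.25 to 16.8). Both intervals include the 8.09% of all pooled regions.

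**Figure D3:**
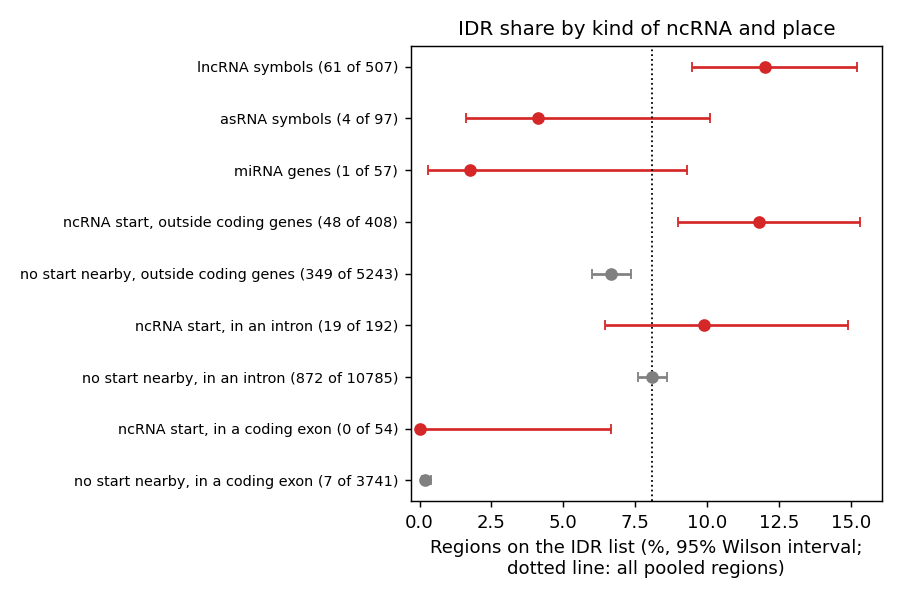
Share of regions on the IDR list (points, in percent, with 95% Wilson intervals) for 3 kinds of ncRNA and, by place, for regions at ncRNA starts (red) and near neither kind of start (grey); the dotted line is the 8.09% of all pooled regions. Outside coding genes the interval at ncRNA starts, 8.99 to 15.3, lies above that of regions near no start, 6.01 to 7.36, while in introns the intervals overlap. The intervals count nearby regions apart and so are too narrow, and the differences were not tested.

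Pooled summits at ncRNA starts were spread nearly evenly over the window, while those at protein-coding starts gathered at the start. Within 100 bp of the start lay 148 of 673 summits (22.0%, 19.0 to 25.3), and an even spread over the window of a single start would place 20.1% there. Distances are to the nearest start, so several starts close together would raise that share, and their part was not tested. At protein-coding starts 3278 of 8165 summits lay within 100 bp (40.1%, 39.1 to 41.2). On the IDR list the shares were 12 of 67 (17.9%, 10.6 to 28.7) and 471 of 1058 (44.5%, 41.5 to 47.5). The intervals of the 2 kinds of start are apart in both lists.

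Nor did summits favour the upstream side as much. Of members, 331 (49.2%, 45.4 to 53.0) lay upstream of the nearest ncRNA start, and 38 of the 67 on the IDR list (56.7%, 44.8 to 67.9). At protein-coding starts, 54.0% of all regions and 835 of 1058 on the IDR list (78.9%, 76.4 to 81.3) lay upstream, the latter with a median summit position 89 bp before the start. With lncRNA and antisense symbols alone, 133 of 604 summits (22.0%) lay within 100 bp and 11 of 65 on the IDR list (16.9%). The IDR share by distance from an ncRNA start was 8.11% within 100 bp, 7.19% from there to 200 bp and 11.7% (8.83 to 15.2) from 200 to 500 bp, and at protein-coding starts it was 14.4%, 16.1% and 9.52% (8.53 to 10.6). Whether the annotated ncRNA starts are as exact as the coding ones was not tested.

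**Figure D4:**
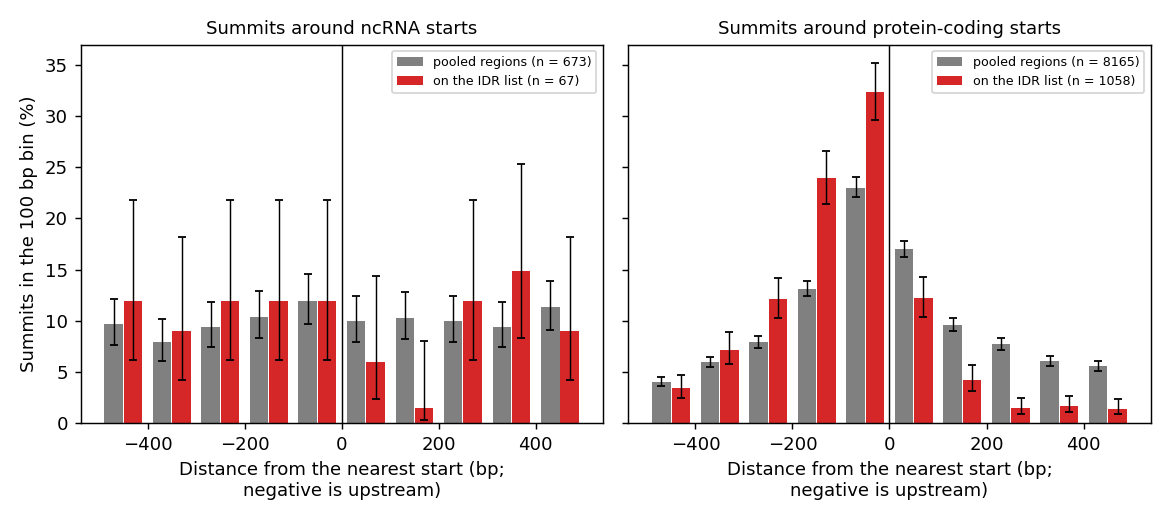
Share of summits (percent, with 95% Wilson intervals) in bins of 100 bp by distance from the nearest start, for regions at ncRNA starts (left) and at protein-coding starts only (right), over all pooled regions (grey) and those on the IDR list (red); negative distances are upstream. The grey bars on the left lie between 7.88% and 11.9%, the red ones, over 67 peaks, between 1.49% and 14.9%, and the right panel peaks just upstream of the start.

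The limit of 500 bp cuts through strong and weak regions alike. Just inside it lay regions at CR45199 (500 bp, rank 18952), CR45292 (499 bp, rank 1825, on the IDR list) and CR45641 (499 bp, rank 4828). Just outside lay one at CR44517 (501 bp, rank 2004, on the IDR list), one at a miRNA record (502 bp, rank 25638) and one at CR43904 (505 bp, rank 7107).

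Few ncRNA genes carried a strong region. Among 2723 ncRNA genes with a start more than 500 bp from any coding start, 625 (23.0%, 21.4 to 24.6) had a pooled region within 500 bp and 65 (2.39%, 1.88 to 3.03) one on the IDR list. Among lncRNA symbols it was 58 of 1694 (3.42%, 2.66 to 4.40) and among miRNAs 3 of 658 (0.456%). These counts take every gene with a start within 500 bp of the summit, while the kinds above take only the nearest gene. They also take mature miRNA records, 481 of all 3261 annotated ncRNA genes, apart from their hairpins. Thus 1 region can count for more than 1 miRNA. For 13945 protein-coding genes the shares were 51.8% and 10.2%, over genes with more starts and without the limit on neighbouring starts. The members belonged to 565 nearest ncRNA genes, of which 467 had 1 region, 90 had 2 and 8 had 3 or more.

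Of the genes with most regions, CR43626 was the only one with a member among the 25 strongest. CR43334 and CR43650 had 4 regions each, and CR43423, CR43626, CR44373, CR44537, CR45641 and marge had 3. At CR43650, the ranks were 909, 3265, 5178 and 22027, with only the first on the IDR list, and the first pair share 1 summit in replicate 1 (signal 52.16). At CR43334 the ranks ran from 4852 to 27323, and at marge from 3742 to 21476, with no region of either on the IDR list.

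Some strong members had another strong peak close by. Another IDR summit lay within 1000 bp of 15 of the 67 (22.4%, 14.1 to 33.7), against 278 of all 2426 IDR peaks (11.5%, 10.3 to 12.8), and in 6 of the 15 that peak was itself a member. The 6 are the pairs at CR44619, CR43626 and CR44380, each counted from both sides, as pairs are among all IDR peaks. The CR43626 pair share 1 summit in replicate 1, and the CR44380 regions overlap. The 2 intervals do not overlap, but they treat paired peaks as independent and so are too narrow, and the difference was not tested. Within 5000 bp the shares were 49.3% (37.7 to 60.9) and 39.7% (37.7 to 41.6), whose intervals overlap.

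Of 37 well-known ncRNA genes listed, 26 were matched by symbol in the annotation, 14 had a member and 3 had one on the IDR list. Over the 2723 ncRNA genes with a start more than 500 bp from any coding start, the shares were 23.0% and 2.39%. The 26 are a chosen list and include Uhg2, Uhg5 and Uhg8, which have no such start. The difference was not tested. At flam, the piRNA cluster that silences transposons in the follicle cells of the ovary, the summit lay 169 bp from the start, with 31.49 in replicate 1 (rank 2121), 67.86 in replicate 3 (rank 1169) and 98.16 pooled (rank 1334). At Hsromega, the heat-shock RNA that organises nuclear omega speckles, it lay 200 bp from a start, with 22.17 in replicate 1 (rank 4413), 80.15 in replicate 3 (rank 855) and 94.33 pooled (rank 1443). Replicate 1 placed the Hsromega region below its own 2426 strongest, while replicate 3 placed it among them. Over its whole body Hsromega held 5 pooled regions, 2 of them on the IDR list, with a best rank of 428. At Uhg4, a host of small nucleolar RNAs, the values were 75.55 (rank 310), 111.4 (rank 440) and 185.0 (rank 375), high in both replicates.

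The regions nearest the starts of the dosage compensation RNAs ranked below the IDR list. roX1, which with roX2 guides the complex that raises transcription of the male X, had its best region at rank 5895, with 12.62 in replicate 1 (rank 14863), 33.65 in replicate 3 (rank 3924) and 42.22 pooled. At roX2 the nearest region lay 570 bp away, past the limit, at rank 13681, with a summit in replicate 3 only (17.67). Neither gene reached the IDR list, although the roX1 rank was better than the members' first quartile of 6615.

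In the bithorax complex, which sets segment identity, iab8 had a summit 3 bp from one of its starts at rank 4715, with 26.83 in replicate 1 (rank 2931) and 23.79 in replicate 3 (rank 7321), and bxd had none within the limit. Over its whole body iab8 held 21 pooled regions, with a best rank of 2417 and 1 on the IDR list. yar, which lies between yellow and achaete, had rank 5304, with 18.05 and 23.19 in the same order. TS2 had rank 3466, Uhg1 4594, sphinx, a gene linked to male courtship, 12278, Uhg7 13397, RNaseMRP 19005, Uhg3 19600, CRG 23020 and acal, which acts in dorsal closure, 24498. None of the regions at the starts of these genes was on the IDR list. Uhg2 and Uhg5 had regions shared with a coding start, and roX2, bxd, let7C, noe, cherub, TS14, Uhg8, RNaseP and both 7SL genes had none within the limit.

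The coding genes nearest to members were a median of 2727 bp away, with a range of 505 to 48786 bp, and 2787 bp for members on the IDR list. Regions near neither kind of start lay a median of 3051 bp from a coding start. At 501 to 1000 bp from a coding start, 6.67% of members were on the IDR list against 6.44% of regions near neither, and from 1000 to 2000 bp 11.2% (7.10 to 17.2) against 6.05% (5.37 to 6.81). Beyond 10000 bp it was 11.5% (6.52 to 19.4) against 5.93% (5.21 to 6.74). The members' intervals overlap from one distance to the next. The 67 members on the IDR list had 63 different nearest coding genes.

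Genes of 9 developmental lists were looked up as nearest neighbour or host. Chromatin regulators accounted for 9 of 673 members (1.34%, 0.705 to 2.52), against 0.533% of regions near neither start, and for 2 on the IDR list. These were the kis region and one at CR44339 (rank 1258, signal 101.5), 4144 bp from Psc, a Polycomb group gene. The 9 regions are not separate loci, since kis, Psc and osa each recur among them. Both Psc regions lie at CR44339, overlap and share a summit in replicate 1. The interval counts each region apart and so is too narrow, and the difference was not tested. Among neural regulators there were 8 members (1.19% against 1.16%) and 1 on the IDR list, at CR44977 inside brat, a translational repressor that limits neuroblast renewal (rank 2011, signal 79.10). Of the other lists none had a member on the IDR list. Over all pooled regions 8.09% were on it, so lists of 10 members or fewer are too small to show an absence or an excess.

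The lists without a strong member held between 1 and 10 regions each. Some genes recur within a list, as fng at CR45243, chinmo at CR45695 and stumps at CR46153 do. There were 10 near ecdysone and nuclear receptor genes (1.49% against 1.19%), of which the strongest was at CR44371, 623 bp from Hr51 (rank 2974). There were 8 near endoderm, trachea and organ regulators (1.19% against 1.76%), the strongest at CR43431 near mirr (rank 4734), and 6 near Notch pathway genes (0.892% against 0.413%), the strongest at CR45243 near fng, a glycosyltransferase that modifies Notch (rank 9119). The dorsal-ventral list (0.594% against 0.726%) and the homeotic list (0.594% against 0.533%) had 4 each, led by CR46153 inside stumps, an adaptor of FGF signalling (rank 6622), and by CR45899 near Antp (rank 4986). The homeotic list does not take in the iab8 region of the bithorax complex (rank 4715), whose nearest coding gene is MSAmiP. BTB genes had 3 (0.446% against 0.851%), led by CR45695 near chinmo (rank 6708). Only 1 lay near a segmentation gene, at CR44281 inside ptc, the Hedgehog receptor (rank 23019), or 0.149% against 0.971%. CG12236 itself was not the nearest coding gene or host of any member.

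The strongest members outside the IDR list were all in introns. They were at CR44284 in Rab32, a small GTPase (rank 2445), at a miRNA record in Tis11, which promotes decay of AU-rich mRNAs (rank 2505), and at CR34052 in Raf, a kinase of the MAPK cascade (rank 2508). CR46036 in osa, a subunit of the Brahma remodelling complex, had rank 2596, and CR44384 in sd, the TEAD factor of the Hippo pathway, had rank 2628. Their signals were between 18.28 and 26.84 in replicate 1 and between 39.11 and 49.49 in replicate 3, all higher in replicate 3.

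By chromosome arm, X held 72 members (10.7%, 8.58 to 13.3), against 16.0% of all pooled regions and 14.8% of ncRNA genes. That last share is over all 3261 annotated ncRNA genes, whatever their distance from a coding start, and so is not a like base. The median rank of the members on X was 9454, and 10 of the 72 (13.9%, 7.72 to 23.7) were on the IDR list, against 8.50% of all regions on X. On 3L it was 8 of 151 (5.30%, 2.71 to 10.1), against 7.37% of all regions there, and on 3R 13 of 152 (8.55%), against 8.21%. On 2L it was 19 of 154 (12.3%, 8.04 to 18.5), against 8.25%, and on 2R 17 of 132 (12.9%, 8.20 to 19.7), against 8.53%. On the small chromosome 4 none of 12 was on the list, with a Wilson upper bound of 24.2%, against 3.46% of all regions there. The intervals of the arms overlap.

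The strong members were poorer in GC than the weak ones. The window of 100 bases either side of the summit had a median GC content of 42.3% over members, the same as over all pooled regions, and 33.8% (range 24.9 to 49.8) over the 67 members on the IDR list against 42.8% over the rest. IDR peaks at protein-coding starts and near neither start both had a median of 36.8%. Only 6 members had a summit inside an annotated transposable element (0.892% against 0.503% of all), and 12 had at least 50% of the window masked as repeat (1.78% against 1.81%).

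For 7 of the 8 words, the share of members that held it was near that of all pooled regions of the same length. GAGAG lay in 23.6% of members and 24.1% of all regions, TATAAA in 19.8% and 21.2%, TCAGT in 31.9% and 30.9%, CAGCTG in 9.51% and 10.7%, CAGGTA in 4.61% and 4.50%, CACTGTGC in 1.93% and 1.86%, and CACACACA in 6.5% and 5.01%. TATCGATA, the DRE of many housekeeping promoters, was the exception, in 0.446% (0.152 to 1.30) of members and 1.75% (1.61 to 1.90) of all regions. It lay in 5.29% of regions at protein-coding starts, which the rule for members leaves out, and in 0.375% near neither. The members' interval includes the share near neither, so the word does not set ncRNA starts apart from those regions. Among the 67 members on the IDR list, none held TATCGATA (interval up to 5.42), against 7.28% (5.86 to 9.0) of IDR peaks at protein-coding starts and 0.159% of those near neither start. CAGCTG lay in 1 of the 67 (1.49%, 0.264 to 7.98), against 13.2% (11.3 to 15.4) of those at protein-coding starts and 7.39% (6.07 to 8.96) of those near neither, whose interval overlaps that of the members. TATAAA lay in 21 of the 67 (31.3%, 21.5 to 43.2), against 30.9% at protein-coding starts and 28.2% near neither. GC content also differed between these sets, as above, and its part in these shares was not tested.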

How the data were processed

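The deposited dm6 files are 1 region list per replicate, 1 for the pooled replicates and 1 of optimal IDR peaks. Each holds, as deposited by the authors, a signal per region (of no stated scale), a −log10 q value, which was not used to rank, and a summit offset in bp. Per the labels, each list was made against a control alignment, and the replicate and pooled lists include background as input for IDR. Aligner, peak caller, IDR threshold: not given in the sources used here. The depth of each sample is unknown. Lists on dm3 were not used, since no dm3 annotation was at hand.

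Start sites came from Ensembl release 115 (BDGP6.54) and sequence from RefSeq Release 6. A region matched a replicate where its summit lay within 200 bp of one there. Shares carry 95% Wilson intervals, which cover counting error only. Regions share libraries and are not replicates, so no test was made. Scripts ran in Python 3.11.15 with numpy 2.4.6, scipy 1.17.1 and matplotlib 3.10.9 and were tested on simulated data.

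Named ncRNA genes were those of the 25 strongest members on the IDR list, the 5 strongest off it, the listed well-known genes and the 3 with most regions, with ties. Coding genes were their nearest neighbours and hosts, and leading members of each neighbour list. The members, lists and words were chosen with earlier results of these data known. The ncRNA genes beside those list members, and the 3 regions on each side of the 500 bp limit, were named too, and CR44274 shows the edge of the IDR list. Alternatives changed the distance limits, start sites, replicates, IDR rule, window and ncRNA kinds.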

Additional observations from a re-analysis of the deposited data

How the results depend on the processing

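Of 60 alternatives over 9 results, 42 moved a value by less than its spread and 18 by more. That spread was wide for the number of regions, where 553 (over 1000 bp from coding starts) and 565 (each ncRNA gene counted once) counted as less. It was narrow for the median rank, where 14334 counted as more, so a move within the spread does not mean no change. The cause was not tested, except that a wider or narrower limit takes in more or fewer regions by construction. With a limit of 200 bp there were 287 regions, an IDR share of 7.67%, below the 8.09% of all regions, a median rank of 14334 and 0.881% of ncRNA genes with an IDR peak. With 1000 bp these were 1245 regions, a median rank of 14550 and 3.78% of genes, with 44.7% of regions inside a coding gene. Without the exclusion of coding starts there were 1027 regions, a median rank of 12956 and 46.0% inside a coding gene; with regions over 1000 bp from coding starts, 34.5% were inside. Against the 1213 strongest IDR peaks the share of regions was 5.94% and that of genes 1.43%. With replicate summits matched within 100 or 500 bp, 36.3% or 58.8% lay in both replicates. Leaving out either replicate, so that the other's own list replaced the pooled one, gave median ranks from 14369 to 14956. A set of lncRNA and antisense symbols only was added after seeing the data; taking starts of these kinds alone gave 605 regions, against 604 whose nearest ncRNA gene is of these kinds. Their IDR share was 65 of 605 (10.7%, 8.52 to 13.5), an interval that lies above 8.09% while that of all 673 includes it. It moved none of the 8 results recomputed (all but GC content) beyond its spread. No paired analysis was possible because there is 1 group. The replicates number 2, read depth is unknown, and the signal's scale is not given, which limits comparison between lists to ranks.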
